A study of Mus musculus with 34 samples.

Results

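The cortex of wild-type (WT) mice was taken as the baseline of a study of Huntington's disease models, and its arrays were chosen by their labels alone: all 8 arrays titled as WT cortex at 15 weeks, of 34 in the series. These mice carried neither mutation of the study. They were controls from the cross of R6/2 mice, which are transgenic for a mutant HTT exon 1 fragment, with mice heterozygous for an Hdac4 knock-out allele. The labels name no treatment, and the strain is labelled CBA X C57Bl/6, a mixed background that all groups share. The remaining arrays, from mice of the same age, were 8 of Hdac4HET, 9 of R6/2 and 9 of Dble::R6/2, which carry both mutations, and they are used here only to ask whether a spread was particular to WT. Of the 8 WT mice, 4 are labelled male and 4 female. Each array held the RNA of 1 mouse, and mice 1 to 8 below are the replicate numbers of the labels.

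The cerebral cortex holds excitatory projection neurons arranged in layers, several classes of inhibitory interneurons, and glia, among which oligodendrocytes wrap axons in myelin. Its neurons switch on immediate early genes within minutes of activity, so a dissected cortex carries a record of what the animal experienced shortly before death. A bulk sample also takes in whatever adjoins the cortex at dissection, such as striatum, choroid plexus, meninges and blood, and RNA can be carried over from other tissues handled alongside.

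The values are log2 signals of probe sets, and 18193 genes were each represented by their brightest probe set. WT values ran from 2.04 to 13.9, array medians from 5.44 to 5.50, and any pair of WT arrays correlated between 0.986 and 0.995 over all probe sets. The tissue label was borne out by its markers: all 18 measured markers of cortical excitatory neurons and layers lay above the median gene mean of 6.70, among them Camk2a at 13.27 ± 0.09 and Slc17a7, the vesicular glutamate transporter of cortical projection neurons, at 10.21 ± 0.11 (SD, n = 8). Hdac4 read 8.06 ± 0.13 and Htt 8.53 ± 0.18 (SD, n = 8). The sex label did not match the transcripts in 5 of the 8 mice, and mice 2, 6 and 7 carried pituitary hormone transcripts. Each is described with its genes, and counts are given without the latter 3 mice where they change.

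Most genes differed little between mice. The median SD between the 8 mice was 0.144 on the log2 scale, with the 5th and 95th percentiles at 0.0727 and 0.291, and 80.2% of genes had an SD under 0.2. An SD over 0.3 was seen for 822 genes (4.52%), over 0.5 for 140 (0.770%) and over 1 for 21. Spread depended on brightness: the median SD was 0.137 for genes with a mean under 4, 0.170 between 4 and 6, 0.156 between 6 and 8, 0.130 between 8 and 10, 0.112 between 10 and 12 and 0.0790 above 12. Of the 140 genes with an SD over 0.5, 75 had a mean above the median gene, 7 were on the X and 3 on the Y chromosome, and 119 still had an SD over 0.5 without mice 2, 6 and 7. Counted anew, 184 genes exceeded 0.5 without those 3 mice and 93 without mouse 3. Where a gene has a second probe set, the pair can be set against each other: the median correlation across the 8 mice was 0.205 over 9010 genes and 0.656 over the 62 such genes among the 100 of highest SD. A correlation over 0.9 was reached by 20 of those 62 (32.3%) and by 2.62% of all 9010 genes.

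**Figure D1:**
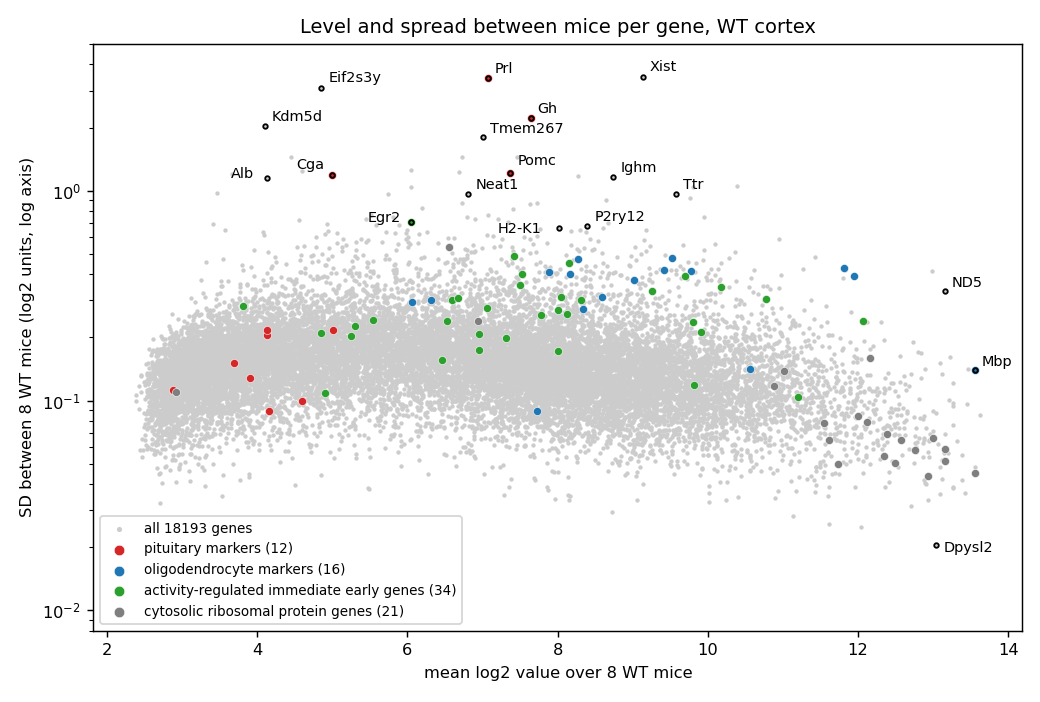
Mean log2 value over the 8 WT mice (x axis) against the SD between them (y axis, log scale), 1 point per gene, with 4 gene lists in colour and selected genes named. Ribosomal protein genes lie at the bright, steady end, oligodendrocyte markers lie mostly above the bulk of genes of their brightness, and Prl, Xist and Eif2s3y stand at the top with an SD over 3.

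The 25 brightest genes had means between 13.12 and 13.63 and a median SD of 0.0641. They were genes of neurons, of glia and of general cell function, and their order reflects the probes as well as the transcripts, so it is not read as an order of abundance. Neuronal genes among them were Camk2n1 (an inhibitor of CaM kinase II, 13.63), Snap25 (a SNARE protein of vesicle release, 13.45), Camk2a, Ndrg4, Gpm6a, Basp1, Stmn1, Atp1b1 (a sodium pump subunit), Rtn3 and App. Genes of glia and of secretion were Mbp (myelin basic protein, 13.55), Ptgds (prostaglandin D synthase, 13.26) and Cpe (carboxypeptidase E). General cell genes were Fth1 (ferritin heavy chain), Tpt1, Hspa8, Selenow, Cox6a1, Eef1a1, the thymosins Tmsb4x and Tmsb10, and the ribosomal protein genes Rps29, Rpl38 and Rpl41. The mitochondrially encoded ND5 was the least steady of the 25, with an SD of 0.334: mouse 8 read 12.40 and the other mice 13.07 to 13.47.

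Among genes brighter than the median gene, the steadiest was Dpysl2, a microtubule-binding protein of growing axons, at 13.04 with an SD of 0.0206. Its highest mouse was 1.04-fold above its lowest. Next came Synj1 (a phosphatase of synaptic vesicle recycling, SD 0.0250), Kifap3 (kinesin-associated), Ubqln1, Ireb2 (an iron regulatory protein), Ttc3, Braf, Acsl3, Cox4i1 and Cul2, with SDs up to 0.0337. The same 10 genes had SDs of 0.0374 to 0.247 in Hdac4HET, and they were picked here for low spread in WT. As groups, 21 cytosolic ribosomal protein genes had a median SD of 0.0663, 27 oxidative phosphorylation genes 0.105 and 18 synaptic vesicle genes 0.105, beside 0.144 over all genes. These groups were bright, with median levels of 12.15, 11.44 and 11.35. Over all genes the median SD was 0.112 with a mean between 10 and 12 and 0.0790 above 12, so most of this steadiness goes with brightness. The ribosomal group still held Rpl14 with an SD of 0.538, on a dim probe set at 6.55. The 3 genes that the study used to normalise qPCR had SDs of 0.105 (Atp5b), 0.112 (Canx) and 0.0663 (Rpl13a). Their means ran from 11.35 to 13.00, so they were no steadier than many genes as bright. B2m, another common reference gene, had an SD of 0.282 and spanned 9.95 to 10.73.

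The gene of highest SD was Xist, the RNA that silences 1 X chromosome in female cells. It read 11.16 to 12.13 in mice 2, 3, 4, 6 and 7 and 4.65 to 5.18 in mice 1, 5 and 8. The Y-linked genes ran the other way and split the mice in the same place. Eif2s3y read 8.40 to 8.68 in mice 1, 5 and 8 and 2.44 to 2.81 in the rest, Kdm5d 6.38 to 6.69 against 2.53 to 2.74, and Uty 4.88 to 5.36 against 2.56 to 2.93. Eif2s3x, the X-linked partner of Eif2s3y, was lower in mice 1, 5 and 8 (10.07 to 10.12) than in the rest (10.49 to 10.62). The labels call mice 1, 3, 4 and 6 male and mice 2, 5, 7 and 8 female, so the transcripts went against the label in mice 3, 4, 5, 6 and 8. In a comparison by label with limma, 0 of 45037 probe sets passed an adjusted p of 0.05 (0%), the smallest adjusted p was 0.730, and 2222 had an unadjusted p under 0.05. The methods' t-test with the same adjustment also called 0, with 2182 under an unadjusted 0.05. Means by label were 9.90 for male and 8.36 for female for Xist, and 4.11 and 5.59 for Eif2s3y, each against the usual direction. Leaving out mouse 6 alone, or mice 2, 6 and 7, gave 1 call.

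Hormone genes of the anterior pituitary made up the next extreme. Prl (prolactin) read 3.51 at lowest, 5.87 at the median and 12.09 at highest, Gh (growth hormone) 4.62, 7.20 and 11.12, Pomc (the precursor of corticotropin) 5.91, 7.21 and 9.67, and Cga (the subunit shared by the glycoprotein hormones) 3.76, 4.51 and 7.54. All 4 were highest in mouse 6, and in all 4 the values of mice 2, 6 and 7 lay above those of the other 5 mice without overlap. The mean of these 3 mice was 80.7-fold that of the other 5 for Prl, 14-fold for Gh, 3.89-fold for Pomc and 3.70-fold for Cga. Since the 3 mice are named here by these very values, the folds are descriptions and were not tested. Of the other 8 measured pituitary markers, Dlk1 was 5.21 to 5.27 in the 3 mice and 4.75 to 5.04 in the rest, though its second probe set correlated with it at -0.65. Tshb, Lhb, Fshb, Pitx1, Ghrhr, Lhx3 and Tbx19 stayed between 2.67 and 4.79 in every mouse and overlapped between the 2 sets of mice. Gh, Pomc and their second probe sets correlated at 0.98 and 0.97 across the mice. Among the other 5 mice, Gh in mouse 5 (7.85) stood above mouse 4 (4.62). Hypothalamic markers did not move with it: 9 measured genes had a list mean with an SD of 0.0687, and Oxt, the oxytocin precursor, spanned 7.34 to 7.95.

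**Figure D2:**
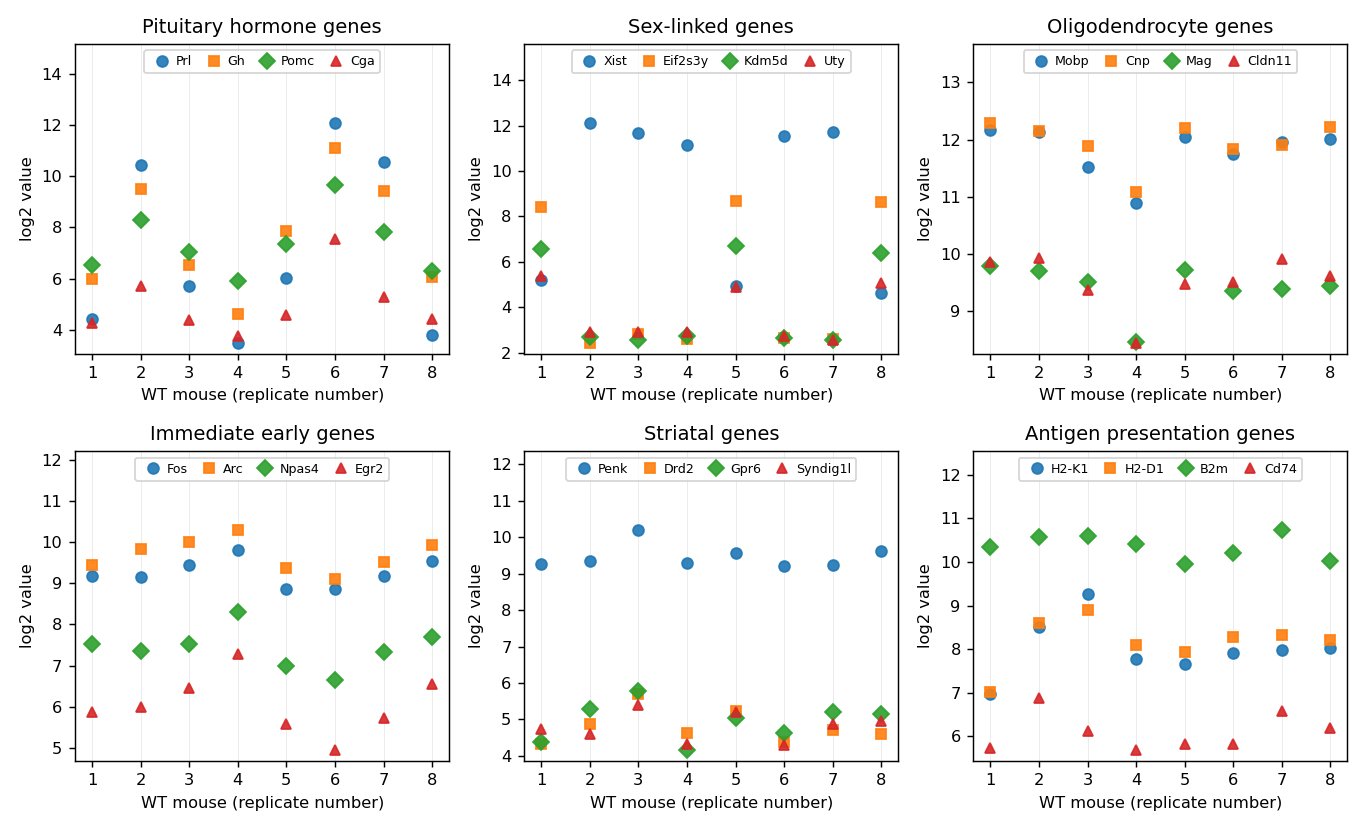
Log2 values of selected genes in each of the 8 WT mice, 1 panel per gene group, with the mouse on the x axis and 1 symbol per gene. Pituitary hormone genes peak in mice 2, 6 and 7, oligodendrocyte genes dip in mouse 4, immediate early genes peak in mouse 4, and striatal genes peak in mouse 3.

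The same hormone genes were seldom raised in the other genotypes. Prl exceeded 8 in 3 of 8 WT arrays, in 1 of 8 Hdac4HET arrays (9.22 at highest) and in 0 of 9 R6/2 and 0 of 9 Dble::R6/2 arrays, where it stayed between 3.06 and 3.78. The spread itself was compared with limma on absolute deviations from each group's mean, over all 45037 probe sets. In simulated data with a 10-fold SD in WT, this test recovered 1.52% of the changed probe sets against Hdac4HET. Against R6/2 it recovered 6.06% and against Dble::R6/2 4.55%, so a failure to pass does not show equal spread. For Prl the SD was 3.42 in WT against 0.228 in R6/2 (limma adjusted p = 0.0363) and 0.130 in Dble::R6/2 (limma adjusted p = 0.0180), and 1.99 in Hdac4HET, which did not pass (limma adjusted p = 0.488). Both calls were lost with deviations from the group median, with squared deviations, with the trend and robust options, and without mouse 2, mouse 6 or mouse 7 alone (limma adjusted p of 0.291 to 0.332 against R6/2 and 0.145 to 0.189 against Dble::R6/2). Without all 3 mice Prl spanned 3.51 to 6.04 in WT, with an SD of 1.13 (limma adjusted p = 0.208 against R6/2 and 0.0442 against Dble::R6/2). How the hormone transcripts came into these samples was not tested.

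Myelin genes varied together, and most of that came from mouse 4. Of 18 oligodendrocyte markers 16 were measured, and their median pairwise correlation across the 8 mice was 0.845, the highest of 32 gene lists and beside 0.0742 over all genes. Mag, the myelin-associated glycoprotein, read 8.47 at lowest, 9.48 at the median and 9.79 at highest. Cnp, an enzyme of the myelin sheath, read 11.08, 12.02 and 12.29, Mobp 10.89, 11.98 and 12.16, and Cldn11, the tight junction protein of myelin, 8.45, 9.57 and 9.93. Mouse 4 was the lowest for all 4.

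The dip reached most of the group. Mouse 4 was also lowest for Mog (7.23 against 7.96 to 8.69 in the others), Opalin (7.33 against 8.07 to 8.68), Aspa, Fa2h, Ermn, Ugt8a, Gjb1, Hapln2 and Sox10, and for Mbp, whose bright probe set moved less (13.25 against 13.48 to 13.68). Mal and Tspan2, myelin genes outside the list that were chosen after their values had been seen, read 9.69 and 7.77 in mouse 4, below 10.40 to 11.03 and 8.75 to 9.08 in the others. Mouse 4 was lowest for 15 of the 16 genes. Among the transcription factors of the whole oligodendrocyte lineage, Olig1 was also lowest there but spanned little (10.42 in mouse 4, 10.43 to 10.86 in the others), and Olig2 was not (7.73 within 7.55 to 7.87). The mean of the 16 genes stood at -0.70 in mouse 4 relative to the average of the 8 mice, between -0.06 and 0.16 in mice 2, 3, 5, 6, 7 and 8, and at 0.33 in mouse 1. Without mouse 4 the SD of this mean fell from 0.305 to 0.126 and the median pairwise correlation from 0.845 to 0.435. Fewer cells of a type and less RNA per cell cannot be told apart in a bulk sample.

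In Hdac4HET cortex the SD of the 16-gene mean was 0.0490 and the median pairwise correlation 0.0425, and Mag had an SD of 0.0612 against 0.418 in WT. Gene by gene the difference in spread did not pass the limma test over all probe sets (adjusted p = 0.582 for Mag, 0.541 for Cnp, 0.493 for Mobp and 0.693 for Cldn11). An F-test of the variances, described below, did not pass either (F-test adjusted p = 0.118 for Mag, 0.283 for Cnp, 0.345 for Mobp and 0.624 for Cldn11). Of simulated 6-fold differences in SD against Hdac4HET, the limma test recovered 2.99% and the F-test 38.8%. Neither result therefore shows equal spread. A low Mag value was also seen in R6/2, where it read 8.43 at lowest with an SD of 0.278. Other values of mouse 4 moved too, and their part in the result was not tested. It was lowest for Ighm, the immunoglobulin heavy chain (6.12, others 8.50 to 9.76), for Mid1 (4.06, others 6.52 to 8.36) and for Cryab, a small heat shock protein of glia (9.39, others 10.05 to 10.30), and highest for Hspa1b, an inducible heat shock protein (9.18, others 8.20 to 8.65). Of 26 genes in which mouse 4 stood apart with an SD over 0.3, 7 were oligodendrocyte markers: Aspa, Cldn11, Cnp, Ermn, Fa2h, Mag and Opalin.

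Immediate early genes formed a second group that moved together. They encode transcription factors, phosphatases and synaptic proteins that neurons induce through calcium and kinase signalling, in large part by way of CREB and serum response factor bound at their promoters. Of 35 listed genes 34 were measured, with a median SD of 0.257 and a median pairwise correlation of 0.467. Fos, a subunit of the AP-1 factor, read 8.86 at lowest, 9.18 at the median and 9.82 at highest. Arc, a regulator of synaptic receptors, read 9.10, 9.68 and 10.30, Npas4, an activity-induced transcription factor, 6.64, 7.44 and 8.30, and Egr2, a zinc finger factor, 4.95, 5.92 and 7.28. Each of these 4 was highest in mouse 4 and lowest in mouse 6.

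Egr2 varied most (SD 0.709), a 5.05-fold range, followed by Npas4 (0.489), Nr4a2 (0.451), Nptx2 (0.401) and Arc (0.392). Over the list, 23 of 34 genes were highest in mouse 4 and 13 were lowest in mouse 6, and the list mean stood at 0.34 in mouse 4 and -0.26 in mouse 6. Not every member took part. Nr4a2, an orphan nuclear receptor that also marks deep cortical layers, ran from 7.47 in mouse 4 to 8.87 in mouse 8 and correlated at -0.21 with the mean of the others, and Atf3 (-0.02), Gadd45g (0.08) and Jun (0.18) followed the others little. Without mouse 4 the median pairwise correlation was 0.297 and the SD of the list mean 0.135, down from 0.187. In Hdac4HET the list moved more, with a median pairwise correlation of 0.753 and a list mean SD of 0.388. The spread of single genes did not pass the test between the 2 genotypes (limma adjusted p = 0.439 for Fos, SD 0.331 against 0.857, and 0.503 for Arc). As that test recovered few simulated differences, this does not show equal spread.

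Promoters of 4 of the genes whose pairs are compared next, those with a single start site in the table, are shown. They run from 250 bases before to 50 after the start site (RefSeq, GRCm38.p6). They were searched for the cyclic AMP response element to which CREB binds and for its shorter core. They lie at chr12:85473640-85473939 on the plus strand (Fos), chr19:4989922-4990221 on the minus strand (Npas4), chr17:26508423-26508722 on the minus strand (Dusp1) and chr15:101266596-101266895 on the plus strand (Nr4a1). Capitals mark the shorter core TGACG or its reverse complement CGTCA, and each is written 5′ to 3′ along the gene.
Fos: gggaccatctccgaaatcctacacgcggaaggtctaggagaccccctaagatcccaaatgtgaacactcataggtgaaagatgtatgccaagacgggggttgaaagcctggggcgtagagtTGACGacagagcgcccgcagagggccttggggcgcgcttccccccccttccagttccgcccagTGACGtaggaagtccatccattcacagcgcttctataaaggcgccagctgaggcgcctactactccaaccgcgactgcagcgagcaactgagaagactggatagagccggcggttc
Npas4: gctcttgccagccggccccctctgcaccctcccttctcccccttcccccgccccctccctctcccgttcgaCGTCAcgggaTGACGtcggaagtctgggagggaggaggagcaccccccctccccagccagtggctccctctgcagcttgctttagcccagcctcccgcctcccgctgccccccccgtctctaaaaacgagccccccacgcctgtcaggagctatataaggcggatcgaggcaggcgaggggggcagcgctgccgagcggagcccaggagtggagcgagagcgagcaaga
Dusp1: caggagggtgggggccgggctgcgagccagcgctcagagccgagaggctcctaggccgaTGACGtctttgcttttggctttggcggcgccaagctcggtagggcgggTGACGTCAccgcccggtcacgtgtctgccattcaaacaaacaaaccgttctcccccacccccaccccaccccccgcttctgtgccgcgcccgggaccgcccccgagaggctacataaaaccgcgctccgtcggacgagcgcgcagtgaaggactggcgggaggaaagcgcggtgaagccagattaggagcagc
Nr4a1: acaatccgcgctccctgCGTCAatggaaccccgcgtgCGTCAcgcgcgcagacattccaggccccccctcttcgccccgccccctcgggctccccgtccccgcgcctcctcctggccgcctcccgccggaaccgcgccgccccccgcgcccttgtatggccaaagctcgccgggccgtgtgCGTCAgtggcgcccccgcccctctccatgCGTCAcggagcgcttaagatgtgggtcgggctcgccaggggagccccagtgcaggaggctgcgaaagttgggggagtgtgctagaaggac
Fos and Npas4 held 2 cores each, Nr4a1 4 and Dusp1 3, of which 2 overlap in 1 full site, TGACGTCA. A core was found in 18 of the 25 listed immediate early genes that have a promoter in the table (72.0%), in 30% of 14452 genes on the array and in 23% of all 27025 genes with a promoter. A gene with several promoters was counted if any of them held a core. By promoter the shares were 53.8% of 39, 26.5% of 18109 and 20.8% of 32851 in the same order. The full site was found in 3 of the 25 genes, in 2.92% of array genes and in 2.03% of all genes. A match describes the sequence in this window and not binding. Arc has no entry in the table, and Egr2 has several start sites and is not printed.

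Gene pairs with a known shared response were compared across the 8 mice with 2-sided exact permutation tests over all pairings, adjusted over the 15 pairs that were measured. The pairs were chosen with earlier results of these data known, so the p-values are not those of pairs fixed beforehand. Of these 15 pairs, 6 passed by Pearson's r and 4 by both r and Spearman's rho. Fos and Arc had r = 0.93 (exact permutation p = 7.44e-04, adjusted p = 0.00372) and rho = 0.90 (exact permutation p = 0.00456, adjusted p = 0.0171). Fos and Npas4 had r = 0.95 (exact permutation p = 1.74e-04, adjusted p = 0.0026) and rho = 0.93 (adjusted exact p = 0.0112). Fos and Dusp1, a phosphatase that switches off MAP kinases, had r = 0.95 (exact permutation p = 5.21e-04, adjusted p = 0.00372) and rho = 0.93 (adjusted exact p = 0.0112). Egr2 and Nr4a1, a nuclear receptor, had r = 0.90 (exact permutation p = 0.00134, adjusted p = 0.00502) and rho = 0.98 (adjusted exact p = 0.00595).

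Without the 2 mice farthest from the median of the first gene, mice 4 and 8 for Fos and mice 4 and 6 for Egr2, r was 0.86, 0.87, 0.89 and 0.87 in the same order. With 6 mice none of the 15 pairs passed after adjustment (adjusted exact permutation p = 0.0729 for these 4). In Hdac4HET, other mice of the same series, r was 0.98 for Fos and Arc, 0.95 for Fos and Dusp1 and 0.93 for Egr2 and Nr4a1. All of these passed (adjusted exact permutation p of 0.00632, 0.00707 and 0.00781). For Fos and Npas4 r was 0.60 there, which did not pass (adjusted exact permutation p = 0.214). Egr1 and Arc reached r = 0.66 and rho = 0.76 in WT and did not pass (adjusted exact permutation p = 0.122 and 0.0689). Per1, a clock gene that also responds to activity, did not pass with Fos (r = 0.27, rho = 0.33, adjusted exact permutation p = 0.548 and 0.458), while in Hdac4HET it did (r = 0.86, adjusted exact permutation p = 0.0178). The difference between the genotypes was not tested.

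**Figure D3:**
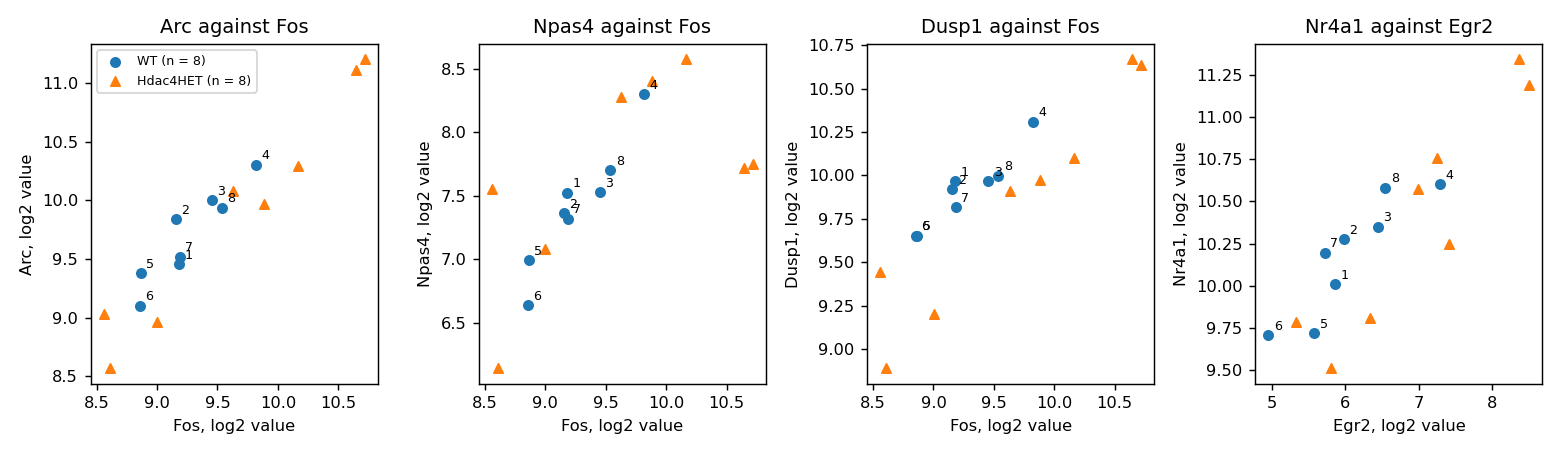
Log2 values of 4 pairs of immediate early genes, 1 point per mouse, for WT (circles, numbered by mouse) and Hdac4HET (triangles). In WT, mice 5 and 6 lie at the low end and mouse 4 at or near the high end of each pair, and Hdac4HET mice span a wider range of Fos.

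Transcripts of neighbouring brain regions differed between mice for some regions and not for others. Striatal projection neuron markers (18 of 20 measured) had a median pairwise correlation of 0.453 and were highest in mouse 3, whose list mean stood at 0.41 while the others lay between -0.18 and 0.12. Penk, the enkephalin precursor, read 10.20 in mouse 3 and 9.22 to 9.64 in the others. Drd2, the D2 dopamine receptor, read 5.71 in mouse 3 and 4.34 to 5.24 in the others, Gpr6 5.78 and 4.17 to 5.30, and Syndig1l 5.41 and 4.30 to 5.20. Ppp1r1b (DARPP-32), Rgs9, Drd1 and Adcy5 were also highest in mouse 3, at 8.80, 8.15, 7.72 and 9.11. In all, 13 of the 18 were highest in mouse 3. Pde10a, Rasd2, Isl1, Pdyn and Rarb were highest in other mice, and Pdyn read 6.14 in mouse 3 within 5.91 to 6.46. Without mouse 3 the median pairwise correlation was 0.179 and the SD of the list mean 0.108, down from 0.193. In Hdac4HET the same list had a correlation of 0.637 and a list mean SD of 0.250. Drd1 and Ppp1r1b, compared as a pair, did not pass in WT (r = 0.46, rho = 0.38, adjusted exact permutation p = 0.310 and 0.415). Without mice 3 and 7 their r was 0.29. In Hdac4HET they passed by r (0.93, adjusted exact permutation p = 0.00781) and not by rho (0.79, adjusted exact permutation p = 0.0698).

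Choroid plexus markers (15 of 16 measured) had a median pairwise correlation of 0.398 (0.268 without mouse 4, 0.388 in Hdac4HET), and 7 of the 15 were lowest in mouse 4. Ttr alone lay above the median gene mean. Ttr, transthyretin, the main secretory product of the choroid plexus, read 8.41 at lowest, 9.20 at the median and 11.19 at highest, with mice 3, 8 and 1 (11.19, 10.49 and 10.27) above the other 5 (8.41 to 9.24). Its second probe set correlated with it at 0.99. Ttr correlated at 0.44 with the mean of the others, less than Ecrg4 (0.78), Clic6 (0.77), Kl (0.73), Sostdc1 (0.71) or Otx2 (0.69). These members were dim: Clic6 spanned 5.18 to 5.86 and was highest in mouse 1, and Ecrg4 spanned 5.43 to 5.86. The spread of Ttr did not pass the test against Hdac4HET, which recovered few simulated differences (SD 0.961 in WT and 1.16, limma adjusted p = 0.886). Layer markers did not move as a group (median pairwise correlation 0.0132 over 18 genes), but Rorb, a layer 4 factor, ran from 7.98 in mouse 3 to 9.98 in mouse 7 (SD 0.653), and Rspo1 from 6.75 in mouse 1 to 7.94 in mouse 5. Slc17a6, the glutamate transporter of thalamic neurons, ran from 7.52 in mouse 4 to 8.64 in mouse 8, while the 9 thalamic markers as a list had a mean with an SD of 0.0990.

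Means of the lists for other neighbours varied little in WT. The SD of the list mean was 0.0264 for 8 hippocampal markers, 0.0675 for 10 cerebellar, 0.0981 for 14 meningeal and fibroblast, 0.0650 for 10 epidermal and 0.0603 for 10 skeletal muscle markers. In Hdac4HET the muscle list had 0.695 and the olfactory bulb list 0.560, against 0.130 for the latter in WT, both through Hdac4HET replicate 7. Single genes of such lists still varied. Prox1, a factor of dentate granule cells, spanned 4.10 to 5.47 and correlated at -0.95 with the mean of the other hippocampal markers, so that the list mean hides it. Cdhr1, an olfactory bulb cadherin, had an SD of 0.537, and Myl1, a muscle myosin light chain, reached 6.09 in mouse 4 from 4.14 in mouse 8. Red blood cell transcripts were dim throughout, with Hba-a1 at 3.16 to 3.63 and Alas2 at 4.95 to 5.49.

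**Figure D4:**
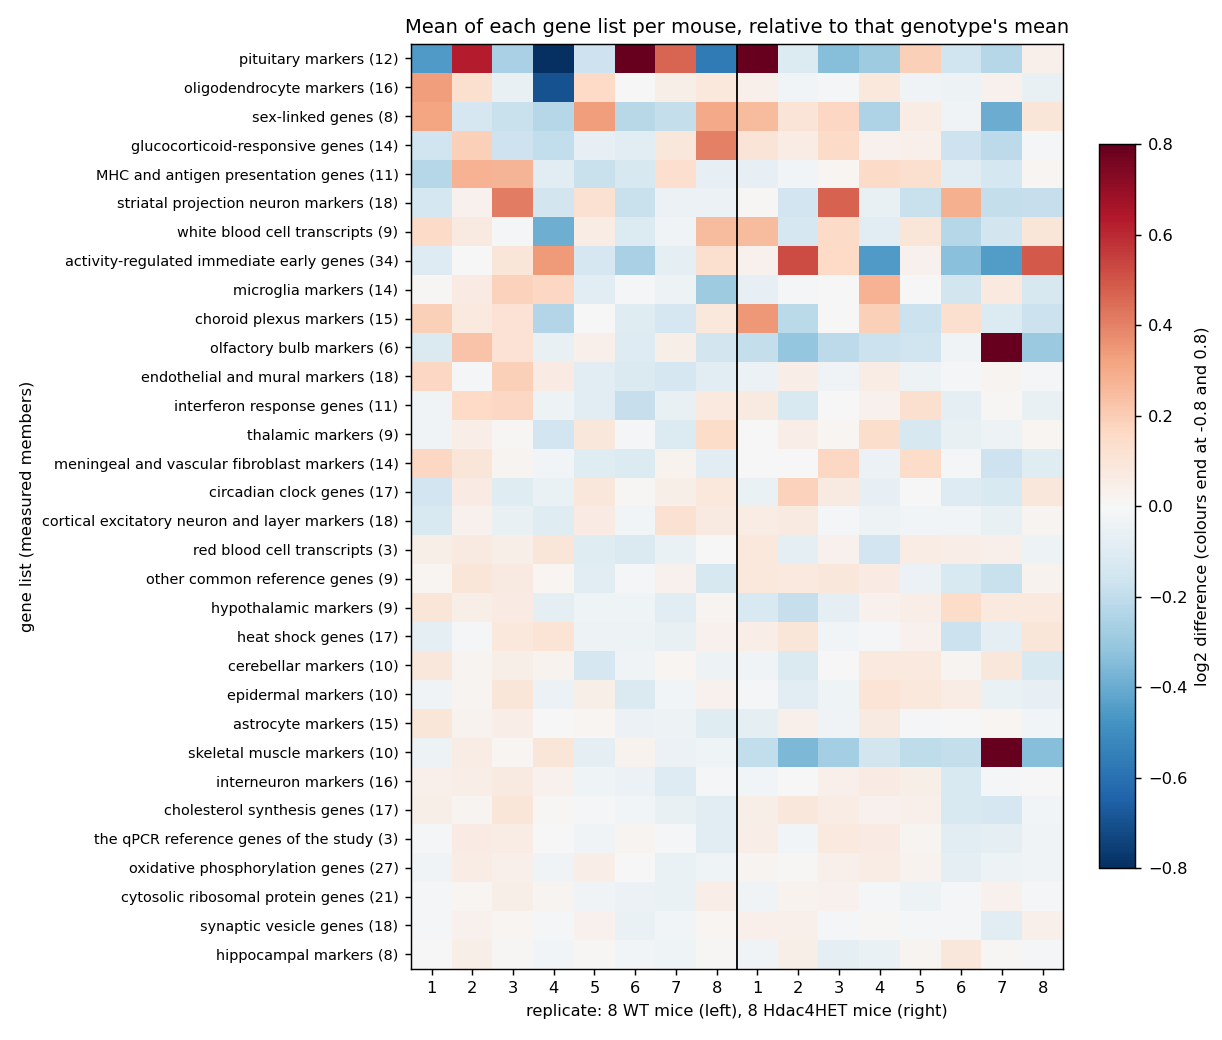
Mean of each of 32 gene lists in each mouse as a log2 difference from that genotype's mean (colour), for 8 WT mice on the left and 8 Hdac4HET mice on the right, with the number of measured members beside each list. In WT the pituitary list runs from -0.84 in mouse 4 to 1.19 in mouse 6, the oligodendrocyte list is at -0.70 in mouse 4, and the striatal list is at 0.41 in mouse 3.

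Over the 32 lists, 437 of 480 listed genes were measured. A median pairwise correlation over 0.4 was reached by 4 lists: oligodendrocyte markers, antigen presentation genes, immediate early genes and striatal markers. It lay within 0.2 of 0 for 17 lists. In Hdac4HET 4 lists also exceeded 0.4, of which immediate early genes and striatal markers are named above. Without mice 2, 6 and 7, 8 lists exceeded it in WT, and without mouse 8 alone 7 did.

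Antigen presentation genes (11 of 14 measured, median pairwise correlation 0.473) varied through a few members. H2-K1 and H2-D1, the classical class I heavy chains, read 6.97 and 7.02 at lowest, 7.94 and 8.25 at the median and 9.27 and 8.89 at highest, with mouse 1 lowest and mouse 3 highest for both. B2m, the light chain they pair with, spanned 9.95 to 10.73, was highest in mouse 7 and did not pass with H2-K1 (r = 0.43, rho = 0.50, adjusted exact permutation p = 0.335 and 0.295). Cd74, the class II invariant chain, was highest in mouse 2 (6.88) and mouse 7 (6.57), against 5.70 to 6.19 in the others, and H2-Ab1 was highest in the same 2 mice (4.93 and 4.79, others 4.20 to 4.58). Both were among the mice with pituitary transcripts, and mouse 6 was not raised (Cd74 5.82). Of the interferon response genes, Ifit1 and Irf7 had r = 0.80 (adjusted exact permutation p = 0.0211) and rho = 0.71 (adjusted exact permutation p = 0.0960), and r was 0.46 without mice 3 and 6.

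Glucocorticoid-responsive genes rise with circulating corticosterone, and 14 were measured, with a median SD of 0.322 and a median pairwise correlation of 0.376. Plin4, a lipid droplet protein, read 5.02 at lowest, 5.90 at the median and 6.94 at highest. Fkbp5, a chaperone of the glucocorticoid receptor, read 7.64, 7.89 and 8.65, and Sgk1, a kinase, 9.54, 9.92 and 10.61. Mouse 8 was highest for Plin4 and Fkbp5 and mouse 7 for Sgk1, and mouse 4 was lowest for Fkbp5 and Sgk1. The list mean stood at 0.40 in mouse 8 and between -0.20 and 0.19 in the others. Sgk1 and Fkbp5 had r = 0.76 (adjusted exact permutation p = 0.0432) and rho = 0.81 (adjusted exact permutation p = 0.0544), and r was 0.89 without mice 7 and 8. With the probe sets of each gene averaged, this pair did not pass (r = 0.71, adjusted exact permutation p = 0.0710), and the median pairwise correlation of the list was 0.126. The SD of the list mean was 0.211 in WT and 0.126 in Hdac4HET.

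Clock genes keep daily time, and the labels give no hour of dissection. Over 17 genes the median SD was 0.178 and the median pairwise correlation 0.0678. Cry1, a repressor of the clock, read 6.67 at lowest, 7.51 at the median and 8.14 at highest, Per2 7.21, 7.81 and 8.17, and Hlf, a clock output factor, 10.01, 10.66 and 11.02. Mouse 1 was lowest for Cry1 and Per2, and mouse 8 was highest for Cry1. Clock itself was steady (SD 0.0575). Dbp and Arntl, which peak at opposite phases, had r = -0.73 and rho = -0.76 and did not pass (adjusted exact permutation p = 0.0872 and 0.0689), and r was -0.26 without mice 3 and 5. Dbp and Per2 had r = 0.63 and rho = 0.67 (adjusted exact permutation p = 0.142 and 0.125).

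Several of the most variable genes took a high or a low level with little in between. To describe this, a gene was counted as having 2 levels where the largest gap between neighbouring mice exceeded 0.5 of its range and at least 2 mice lay on each side, a rule set after the data had been seen. Of the 140 genes with an SD over 0.5, 27 met it (19.3%), against 612 of all 18193 genes (3.36%). In Hdac4HET it was also met by 9 of the 27 (33.3%) and by 31 of the 612 (5.07%). A gap of this kind also raises the SD, so the first share is a description. Besides Xist, Prl and the Y-linked genes, the 27 were mostly autosomal. Tmem267 read 3.96 and 4.29 in mice 4 and 3 and 7.41 to 8.48 in the others. Tmem87a read 5.54 to 5.90 in 5 mice and 8.15 to 8.96 in mice 5, 6 and 8, and Tmem181a 9.02 to 9.34 in mice 3, 4 and 8 and 11.12 to 11.20 in the others. Neat1, a nuclear long non-coding RNA, read 7.78 to 8.07 in mice 1, 3 and 4 and 5.82 to 6.41 in the rest, though its second probe set correlated at 0.31. Gm21953 was high in mice 1 and 8, Cap1, an actin-binding protein, low in mice 3 and 8, and Taf15 low in mice 1 and 3.

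Neighbouring genes often shared such patterns. Of the 100 genes of highest SD, 25 lay within 1 Mb of another of them. Over blocks of 100 genes in order of SD the median was 13% and the highest other block 29%, so the share alone was not outside the other blocks. The pairs differed in how closely they moved: 13 of 18 pairs among the 100 had an absolute correlation over 0.7 across the WT mice (72.2%), against 8.57% of 1354 pairs in the other blocks. The blocks differ in SD, which was not adjusted for. Without the sex chromosomes it was 10 of 14 pairs, all 10 had the same sign in Hdac4HET, and 9 of them also exceeded 0.7 there. Tmem267 and 4833420G17Rik on chromosome 13, with starts 26.1 kb apart, correlated at 0.97 (0.87 in Hdac4HET), and both were low in mice 3 and 4. Ang, angiogenin, and Gm26782 on chromosome 14 correlated at 0.94, and Acer3, a ceramidase, and Myo7a on chromosome 7 at 0.90, both lowest in mouse 3 (5.53 and 4.58). Zfp729a and Zfp874a, zinc finger genes on chromosome 13, were opposed (-0.89, and -0.92 in Hdac4HET). The mixed strain background and the sequence under each probe were not analysed here.

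Single mice stood apart in 1115 genes (6.13%), counted where 1 mouse lay beyond Dixon's 95% limit for 8 samples, which chance alone gives for about 1 gene in 20. Mouse 8 accounted for 351 of them (160 high, 191 low), mouse 1 for 198 and the others for 34 to 122. P2ry12, the purinergic receptor of resting microglia, read 6.77 in mouse 8 and 8.28 to 8.81 in the others. Itgam, another microglial gene, was also lowest there (3.33, others 3.90 to 4.68), as was Gpr34 (6.35, others up to 6.93). The other 11 of 14 microglial markers were lowest in other mice, and C1qc for example read 8.26 in mouse 8 within 7.88 to 8.85. The mean of the 14 was lowest in mouse 8 (-0.28, others -0.08 to 0.18), and its SD was 0.147, or 0.101 without mouse 8. Mouse 8 was also lowest for the channel gene Ano3 (5.15, others 6.29 to 7.48), Cacng3, a regulatory subunit of AMPA receptors (7.54, others 8.30 to 8.97), Igfbp7, a vascular secreted protein (8.24, others 8.87 to 9.36), ND5 and Fth1 (13.16, others 13.42 to 13.61). For Itgam the value of mouse 8 lay below the range of the 8 Hdac4HET arrays, which was 3.59 to 4.19. For P2ry12, Ano3, Cacng3, Igfbp7, ND5 and Fth1 its value lay inside the Hdac4HET range. That range ran from 6.45 to 7.95 for P2ry12 and from 12.04 to 12.90 for ND5. The value of mouse 8 also lay inside the R6/2 range, 4.64 to 7.36 for P2ry12 and 11.99 to 13.11 for ND5. It lay inside the Dble::R6/2 range too, 4.87 to 7.52 and 10.67 to 12.80. P2ry12 exceeded 8 in 7 of the 8 WT arrays and in 0 arrays of each other genotype. Over all genes where a mouse stood apart, the value lay inside the Hdac4HET range for 181 of 351 in mouse 8 (51.6%) and for 11.2% to 39.6% in the other mice. Mouse 8 is labelled WT, and what set it apart was not tested.

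Principal components describe the variation between mice without a list. Values were not scaled by SD, so genes of high SD lead the components. Members of the oligodendrocyte, immediate early and striatal lists had SDs up to 0.479, 0.709 and 0.533. None was among the leading genes, which does not show that these groups took no part. The first component held 26% of the variance between WT mice and set mouse 3 (0.60) against mice 6 and 7 (-0.53 and -0.52). Its leading genes were Eif2s3y, Alb (albumin, 6.81 in mouse 3, others 3.39 to 4.60), Neat1 and Ttr at one end and Prl, Gh, Xist and Tmem267 at the other. The second held 21.3% and was led by mouse 8 (0.81), with Eif2s3y, Kdm5d, Gm21953 and Tmem267 high and Xist, Prl, Ano3 and P2ry12 low. The third held 14.6% and set mice 1 and 4 (0.54 and 0.57) against mouse 2 (-0.51), with A330076H08Rik, 2900052N01Rik and Neat1 high and Prl, Gh and Tmem267 low.

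Whether a gene's spread was particular to WT was asked of all probe sets. By limma on absolute deviations, 1 probe set differed between WT and Hdac4HET (0.00222%), 2 between WT and R6/2 (0.00444%) and 3 between WT and Dble::R6/2 (0.00666%). One probe set of 1500011B03Rik varied less in WT than in Hdac4HET (SD 0.326 against 0.819, limma adjusted p = 0.00423, F-test adjusted p = 0.668). On the brightest probe set of this gene the SD was 0.769 against 0.917 and did not pass (limma adjusted p = 0.474). Apart from Prl, Dmp1, a matrix protein, varied more in WT than in R6/2 (SD 0.904 against 0.246 on 1 of its probe sets, limma adjusted p = 0.0460), and Spx, the peptide spexin, more in WT than in Dble::R6/2 (SD 0.545 against 0.112, limma adjusted p = 0.0223). On the called probe set of Dmp1, mice 2, 6 and 7 read 4.45 to 4.66 and the others 5.23 to 6.52. Without these 3 mice it did not pass (limma adjusted p = 0.846). On the brightest probe set of Dmp1 the SD was 0.550 against 0.247 (limma adjusted p = 0.464). The remaining call was a probe set without a single gene symbol. The 1500011B03Rik call was lost with squared deviations (limma adjusted p = 0.199), with the trend and robust options (0.504) and without mice 2, 6 and 7 (0.0552). All calls against R6/2 and Dble::R6/2 were lost with deviations taken from the group median. In simulated data, a larger share of the calls of this test was false than its adjustment allows, and it recovered few of the differences. Leaving out 1 WT mouse gave 1 to 3 calls against Hdac4HET (3 without mouse 4 or 5), 0 to 5 against R6/2 (0 without mouse 2 or 6, 5 without mouse 3 or 4) and 1 to 18 against Dble::R6/2 (18 without mouse 8).

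An F-test of the variances, added after the data had been seen, called 1 probe set against Hdac4HET (0.00222%; Diaph2, SD 0.112 in WT against 1.36), 24 against R6/2 (0.0533%, 4 more and 20 less variable in WT) and 11 against Dble::R6/2 (0.0244%, 4 more and 7 less variable in WT). It is sensitive to single outlying mice. Higher in WT was the SD of Prl in both comparisons with the transgene and of Pomc against R6/2 (SD 1.22 against 0.191). So was that of Fxyd2, a sodium pump regulator, against Dble::R6/2 on 1 of its probe sets. On this probe set mouse 4 read 6.51 and the other WT mice 4.11 to 4.63. On its brightest probe set Fxyd2 reached 6.38 in WT, in mouse 4, and 6.85 in Hdac4HET. The remaining calls of a higher SD in WT were the same pair of probe sets against either genotype, neither with a single gene symbol. One had an SD of 3.71 in WT against 0.386 in R6/2 and 0.406 in Dble::R6/2, and read 3.30 and 3.58 in mice 7 and 2 and 10.99 to 12.01 in the others. The other had an SD of 3.34 against 0.369 and 0.451, with the same mice low (3.91 and 3.97, others 10.45 to 11.81). The 20 less variable in WT than in R6/2 included Dlg4, the scaffold protein PSD-95 of excitatory synapses (SD 0.224 against 1.78). Others were Atp6v0e2, a proton pump subunit (0.0457 against 0.581), and Krtdap (0.105 against 1.07), which at 3.21 to 3.53 was dim in WT. Extreme R6/2 values lay far from the R6/2 median in all of these. Dlg4 read 4.23 at lowest and 9.51 at the median, and Atp6v0e2 9.65 and 11.33. Krtdap read 6.52 at highest and 3.35 at the median. The 7 less variable than in Dble::R6/2 included Kcne2, Otx2 and Sostdc1, members of the choroid plexus list that were at or below 4.42 in every WT mouse.

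The ranking of genes by spread was partly shared between genotypes. Of the 140 genes with an SD over 0.5 in WT, 71 exceeded it in Hdac4HET, 84 in R6/2 and 76 in Dble::R6/2. In all 3 other genotypes it was exceeded by 41, and in none of them by 31. Over all genes an SD over 0.5 was seen for 169, 298 and 182 genes in the same order, and the median SD was 0.150, 0.170 and 0.162 beside 0.144 in WT. Across the 18193 genes, which are not independent, Spearman's rho between the SD in WT and in each other genotype was 0.39, 0.40 and 0.42. The genes' probe sets and levels of brightness are shared by all arrays.

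**Figure D5:**
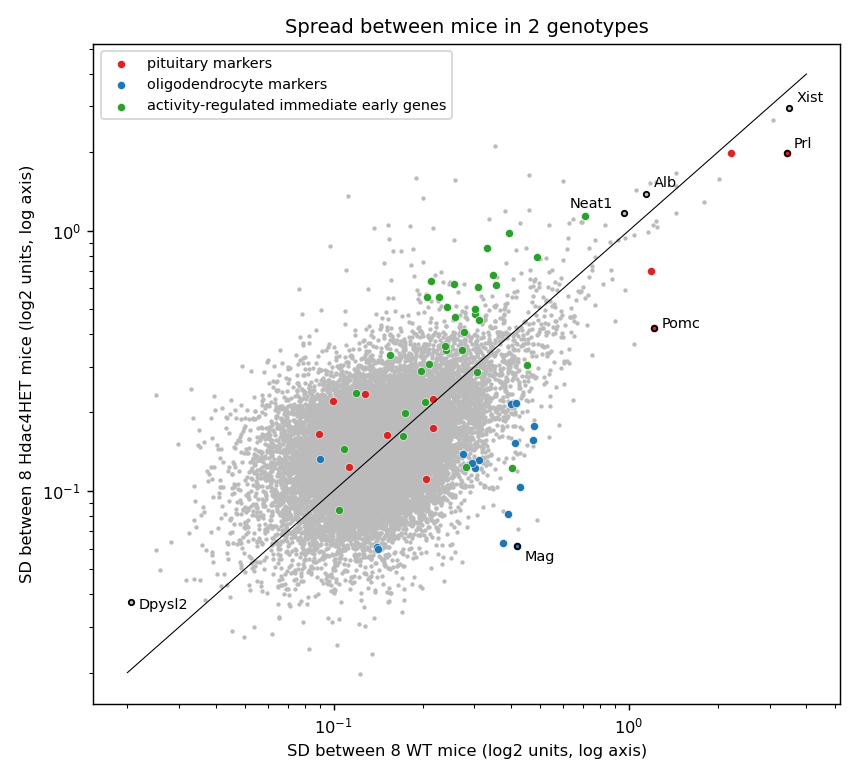
SD between 8 WT mice (x axis) against SD between 8 Hdac4HET mice (y axis), 1 point per gene on log axes, with 3 gene lists in colour and the line of equal spread. Oligodendrocyte markers lie mostly below the line (Mag, 0.418 in WT and 0.0612 in Hdac4HET), most immediate early genes above it, and Xist, Alb and Neat1 are high in both.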

How the data were processed

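Cortex RNA of mice aged 15 weeks was hybridised to Affymetrix Mouse Genome 430 version 2.0 arrays, 1 per mouse, and arrays of poor quality score were excluded by the authors. The deposited values are log2 expression levels of 45037 probe sets as the authors made them, and their normalization is not given in the sources used here. All columns matched a sample by name (0 did not). No counts exist, so the number of arrays limits precision, and p-values measure the spread between these samples. Symbols came from the platform annotation updated with RefSeq (GRCm38.p6): 34945 probe sets had 1 symbol, 932 several and 9160 none, and 34741 were matched.

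Where a gene had several probe sets, the one brightest on average across the 34 arrays was taken, giving 18193 genes. Mean and SD were computed over the 8 WT arrays. Sex labels and absolute deviations from group means were tested with limma 3.58.1 (R 4.3.3) on the arrays compared, with Benjamini-Hochberg adjustment over all probe sets and calls at 0.05. Correlations of gene pairs used exact permutation over all pairings. Gene lists are described by medians and were not tested. The members, lists and pairs were chosen with earlier results of these data known. Named genes were drawn from the 25 brightest, the 25 of highest SD, the 10 of lowest SD above the median gene mean, list members, pairs, called genes and leading genes of components. Genes in which mouse 8 stood apart, genes with 2 levels, Mal and Tspan2 were chosen once their values were known.

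The model fits were tested on simulated data with known changes. The limma test of spread recovered few of the simulated differences, so an F-test of the variances was added after the data had been seen. Alternatives were quantile normalization, the probe sets above the median mean, eBayes with trend and robust options, array weights, the methods' t-test, other deviations, the mean of all probe sets, the replicate number as a block, and leaving out mice. Figures were drawn with matplotlib 3.10.9.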

Additional observations from a re-analysis of the deposited data

Results flagged for a closer look

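A single mouse lay beyond Dixon's 95% limit for 8 samples in 32 of 160 named genes and 32 list means (16.7%). Chance gives about 1 in 20, but many of these genes were named because a mouse stood apart, so the share cannot be read against chance.

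Mouse 4 was low for the myelin genes Mbp (13.25, others 13.48 to 13.68), Mag (8.47, others 9.35 to 9.79), Cnp (11.08, others 11.83 to 12.29), Cldn11 (8.45, others 9.37 to 9.93), Opalin (7.33, others 8.07 to 8.68), Aspa (6.95, others 7.79 to 8.30), Fa2h (8.17, others 8.81 to 9.32), Ermn (7.90, others 8.51 to 8.95), Hapln2 (5.36, others 6.03 to 6.28), Mal (9.69, others 10.40 to 11.03) and Tspan2 (7.77, others 8.75 to 9.08), and the mean of the oligodendrocyte list stood at -0.70 there. It was also low for Mid1 (4.06, others 6.52 to 8.36), Ighm (6.12, others 8.50 to 9.76) and Cryab (9.39, others 10.05 to 10.30) and high for Fxyd2 (6.38, others 4.94 to 5.24) and Hspa1b (9.18, others 8.20 to 8.65).

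Mouse 8 was low for Fth1 (13.16, others 13.42 to 13.61), ND5 (12.40, others 13.07 to 13.47), Kifap3 (11.56, others 11.60 to 11.64), P2ry12 (6.77, others 8.28 to 8.81), Cacng3 (7.54, others 8.30 to 8.97), Igfbp7 (8.24, others 8.87 to 9.36) and Rarb (5.85, others 6.20 to 6.39), and high for Rpl13a (13.14, others 12.93 to 13.03) and S100a9 (4.96, others 3.93 to 4.18).

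Mouse 3 was high for Alb (6.81, others 3.39 to 4.60) and Penk (10.20, others 9.22 to 9.64), and low for Acer3 (5.53, others 7.08 to 8.07) and Myo7a (4.58, others 5.71 to 6.49). Mouse 1 was low for Tmsb10 (12.99, others 13.17 to 13.31) and Pde10a (8.34, others 8.97 to 9.49).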

How the results depend on the processing

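The normalization behind the deposited values is unknown, dim probe sets sit near the background of the array, and 8 mice cannot separate a rare event from a frequent one. The count of genes with an SD over 0.5 was 140, and 75 of them had a mean above the median gene. Leaving out 1 mouse gave 93 to 165, the lowest without mouse 3. The 0 calls for the sex label became 1 without mice 2, 6 and 7 and 31 without the mismatched arrays, which were picked by Xist and Y-linked values and leave 1 array labelled male, and ranged from 0 to 1 when 1 mouse was left out (1 without mouse 6). The single call of spread against Hdac4HET became 2 among probe sets above the median mean, 0 with squared deviations or with the trend and robust options, 5 without mice 2, 6 and 7, and 1 to 3 with 1 mouse left out. The 2 calls against R6/2 became 0 among probe sets above the median mean, from the median, with squared deviations, with the trend and robust options and without mice 2, 6 and 7, 24 by the F-test, and 0 to 5 with 1 mouse left out (0 without mouse 2 or mouse 6). The 3 against Dble::R6/2 became 0 among probe sets above the median mean, from the median, with squared deviations and with the trend and robust options, 11 by the F-test, and 1 to 18 with 1 mouse left out (18 without mouse 8). Of the 6 gene pairs that passed by r, 0 passed with 6 mice. The 4 lists with a median pairwise correlation over 0.4 became 8 without mice 2, 6 and 7 and 5 to 7 with 1 mouse left out (7 without mouse 8). The causes were not tested.

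With the replicate number as a block, 0 probe sets were called in each of the 3 comparisons of spread. Replicates of the same number in WT and another genotype share only the number: their deviations correlated between -0.12 and 0.37 for Hdac4HET, -0.22 and 0.19 for R6/2 and -0.16 and 0.41 for Dble::R6/2, with 3 of 8 pairs over 0.1 in each, and 1, 0 and 0 mice correlated best with their own number.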

Other observations

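Malat1, a nuclear long non-coding RNA, was among the bright genes that were not steady. It read 12.21 at lowest (mouse 2), and 13.37 at highest (mouse 6), with an SD of 0.413, and its second probe set correlated with it at 0.99 across the 8 mice. Kcnj9, a potassium channel subunit of neurons, read 8.00 and 8.41 in mice 1 and 8 and 9.58 to 10.61 in the others, while its 8 Hdac4HET values lay between 9.69 and 10.64. Sox2ot, a non-coding transcript overlapping Sox2, read 4.40 in mouse 3 and 5.92 to 7.09 in the others, and Dnajc7, a chaperone, 8.26 in mouse 3 and 9.61 to 10.48 in the others. These genes were chosen after their values had been seen.

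Probe sets without a single gene symbol are left out of the gene counts. They numbered 10092, and 259 of the 1005 probe sets with an SD over 0.5 between WT mice were among them, as were 7 of the 19 with an SD over 2.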
